A study of Mus musculus with 7 samples.

Results

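The genes that encode matrix-cutting proteases, their inhibitors and the enzymes that crosslink the matrix were compared between mouse embryonic fibroblasts (MEFs) and mouse embryonic stem cells (mESCs). They were chosen by symbol, with earlier results of these data known. The rule takes every matrix metalloproteinase (Mmp followed by a number), Timp1 to Timp4, every Adamts with a number, and Lox and Loxl1 to Loxl4. It also takes the membrane proteases Adam9, Adam10, Adam12, Adam17 and Adam19, and the single genes Ctsk, Fap and Reck. This rule took 59 of the 55484 genes of the count table. MEFs are connective tissue cells taken from mouse embryos, while mESCs come from the early embryo before implantation and can give rise to all tissues of the body. The 4 MEF and 3 mESC libraries, all labelled as having a C57/Bl6 background and with no treatment named, were taken up in the study to compare pluripotent cells with fibroblasts. The labels name no age, sex or culture for these samples, and their RNA extraction text speaks of blood stem cells of young and aged mice. The study calls its expression samples biological replicates, but it counts fewer MEF samples than the table has MEF columns, and whether the libraries of a cell type came from separate cultures is not stated. The p-values measure the spread between these samples only, and in bulk RNA fewer cells of a type cannot be told apart from less RNA per cell.

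Libraries are given throughout in one order, the MEF libraries with 11441278, 7312679, 9176467 and 6528643 counts and the mESC libraries with 8193825, 8057985 and 7462710. They are called the first, the second and so on in this order, which is not stated to be the sample number. Levels are CPM, counts scaled to a common library size by TMM, and log2 fold changes are mESC minus MEF from edgeR's quasi-likelihood test. The SE given with them is approximate. It is the absolute log2 fold change divided by the square root of that test's F statistic, and not a standard error reported by the fit. A floor of 3 counts came to between 0.288 and 0.477 CPM per library, for counting error only. The labelled cell types were checked against their markers. All 10 fibroblast markers were lower in mESCs, at a median of 1.66% of the MEF level, and all 8 pluripotency markers were higher. Of the genes listed for the surface markers by which the study sorts these cell types, Thy1 had 325 to 386 CPM in MEFs and 6.25 to 7.8 in mESCs, and Epcam 10 to 12.6 and 217 to 304. Fut4, listed for the SSEA1 epitope, was not above 1.98 CPM in any library. Other enzymes that can make this epitope were not examined, so the Fut4 level does not tell whether the cells carried it. The macrophage list summed to 23.5 to 59.7 CPM in MEFs and 22.5 to 28.9 in mESCs, the neutrophil list to 0.61 to 2.4 and 1.7 to 2.6, the osteoclast list to 1.56 to 5.57 and 14 to 16.5, and the endothelial list to 17.6 to 25.6 and 47.1 to 72.1. The osteoblast list summed to 53.3 to 83.8 and 45.9 to 60.6 CPM, the keratinocyte list to 118 to 147 and 114 to 141, the primitive endoderm list to 135 to 228 and 25.7 to 85.2, and the chondrocyte list, carried by Sox9, to 174 to 246 and 5.96 to 9.91. The osteoblast sums join opposite directions. Mean CPM in MEFs and mESCs was 0.734 and 52.7 for Alpl, 43.1 and 0.493 for Runx2, and 23.9 and 0.154 for Ibsp. In the primitive endoderm list Dab2, Gata6 and Pdgfra had lower means in mESCs, and Sox17, Foxa2 and Gata4 had higher means there. In each cell type 1 of the 5 osteoblast markers had no count, and there was none for 1 of 5 neutrophil markers in MEFs and 3 of 5 in mESCs, 1 of 5 osteoclast markers in MEFs, 2 of 6 primitive endoderm markers in MEFs and 1 of 8 macrophage markers in mESCs.

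Matrix metalloproteinases (MMPs) are zinc proteases, secreted or held in the membrane, that cut collagens and other matrix proteins and are made as inactive proenzymes. TIMPs block them by filling their active site. ADAM proteases release the outer parts of membrane proteins, ADAMTS proteases cut proteoglycans and procollagens, and lysyl oxidases (Lox and its relatives) link collagen and elastin chains to each other. Fibroblasts are a main source of these enzymes and of the matrix they act on.

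Short promoter motifs were counted in the MMP genes that sit together and in the rest of the set, and stretches of 6 promoters are printed because their letters show the contrast for genes described further on. A run of 10 MMP genes lies within 427 kb of chromosome 9 (chr9:7272514-7699585, GRCm38), and the other members are spread over the genome, with only pairs as neighbours. RefSeq promoters (250 bases before to 50 after the start, GRCm38.p6) were held for 38 of the 59 genes. The AP-1 motif TGAGTCA, known as the site of Fos and Jun proteins, was present on either strand in 7 of the 10 clustered genes and in 1 of the 28 others (Adam19), against 5.2% of all 32851 promoters of that length. The TATA motif TATAAA was in 9 of the 10, in 2 of the 28 (Adamts1 and Mmp21) and in 13.6% of all promoters. The GC box GGGCGG was in 0 of the 10, in 23 of the 28 and in 35.7% of all. In the stretches shown no motif overlaps another, and the GC boxes of Mmp14 abut. Each stretch is the 120 bases just before the RefSeq start, or for Mmp15 before the GENCODE start, which lies earlier, written 5′ to 3′ on the plus strand, which is the strand of all 6 genes. Capitals mark these motifs on either strand. Mmp3 (chr9:7445702-7445821), Mmp10 (chr9:7502222-7502341) and Mmp13 (chr9:7272394-7272513) stand for the cluster. Mmp14 (chr14:54431478-54431597) is the MMP with the highest level in MEFs, Mmp15 (chr8:95352148-95352267) the only tested gene that passed as higher in mESCs, and Timp1 (chrX:20870046-20870165) the inhibitor with the most RNA in mESCs.
Mmp3: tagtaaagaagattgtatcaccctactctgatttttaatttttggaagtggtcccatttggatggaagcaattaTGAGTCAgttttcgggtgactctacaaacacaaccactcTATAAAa
Mmp10: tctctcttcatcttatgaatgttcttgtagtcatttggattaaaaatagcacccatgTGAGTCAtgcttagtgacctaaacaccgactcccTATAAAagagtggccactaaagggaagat
Mmp13: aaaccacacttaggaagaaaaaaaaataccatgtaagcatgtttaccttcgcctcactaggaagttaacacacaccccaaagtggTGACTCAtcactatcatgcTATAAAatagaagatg
Mmp14: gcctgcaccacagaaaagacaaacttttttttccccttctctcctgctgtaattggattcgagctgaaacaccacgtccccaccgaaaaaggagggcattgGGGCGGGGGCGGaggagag
Mmp15: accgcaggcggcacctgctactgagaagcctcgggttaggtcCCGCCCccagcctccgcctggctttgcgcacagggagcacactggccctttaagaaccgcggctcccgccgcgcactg
Timp1: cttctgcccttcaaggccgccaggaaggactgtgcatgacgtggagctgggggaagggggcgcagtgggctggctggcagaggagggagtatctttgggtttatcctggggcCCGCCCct
A match is a description of the letters and not of binding.

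Most of these genes were lower in mESCs. Of the 59, 43 had enough counts for the test and 16 did not. Among the 43, 36 were lower in mESCs, 1 was higher (Mmp15) and 6 did not pass (Loxl2, Mmp11, Mmp17, Adamts14, Timp4 and Adamts8), at a Benjamini-Hochberg adjusted p of 0.05 over all 16580 genes tested. Over all tested genes, 25% were lower and 22.8% higher in mESCs. Without scaling beyond library size the split of all genes turned to 3345 lower and 5180 higher from 4153 and 3785, and the members stayed at 36 and 1. The median log2 fold change was -3.03 over the 43 members and 0.04 over all tested genes. All mESC libraries lay below all MEF libraries in 36 of the 43, where 26.2% of tested genes did so, and above them in 2 (Mmp15 and Mmp17), where 25.9% did. The filter (1.24 CPM in at least 3 libraries) was met in both cell types by 25 of the 43, in MEFs alone by 17 and in mESCs alone by 1. Those 17, and Mmp15 as the 1 that met it in mESCs alone, entered through the group in which they were high. The counts therefore describe the tested genes and not all 59.

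**Figure D1:**
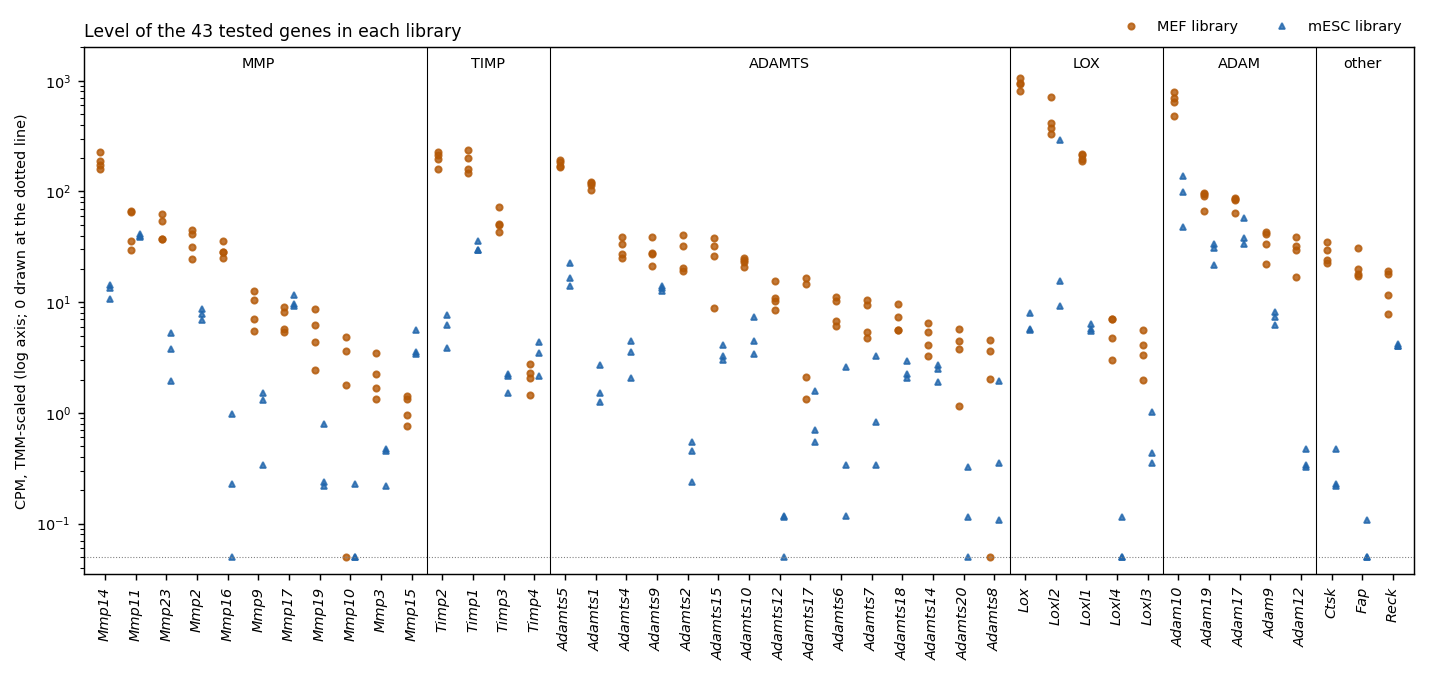
CPM (log axis) of the 43 tested genes in each library, by family and in order of the mean MEF level; circles are the 4 MEF and triangles the 3 mESC libraries, and 0 is drawn at the dotted line. MEF circles lie above all mESC triangles for 36 genes, the Lox circles lie at 801 to 1050 CPM, and 1 mESC triangle of Loxl2 sits at 292 CPM, far above the other mESC values of 9.21 and 15.5.

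**Figure D2:**
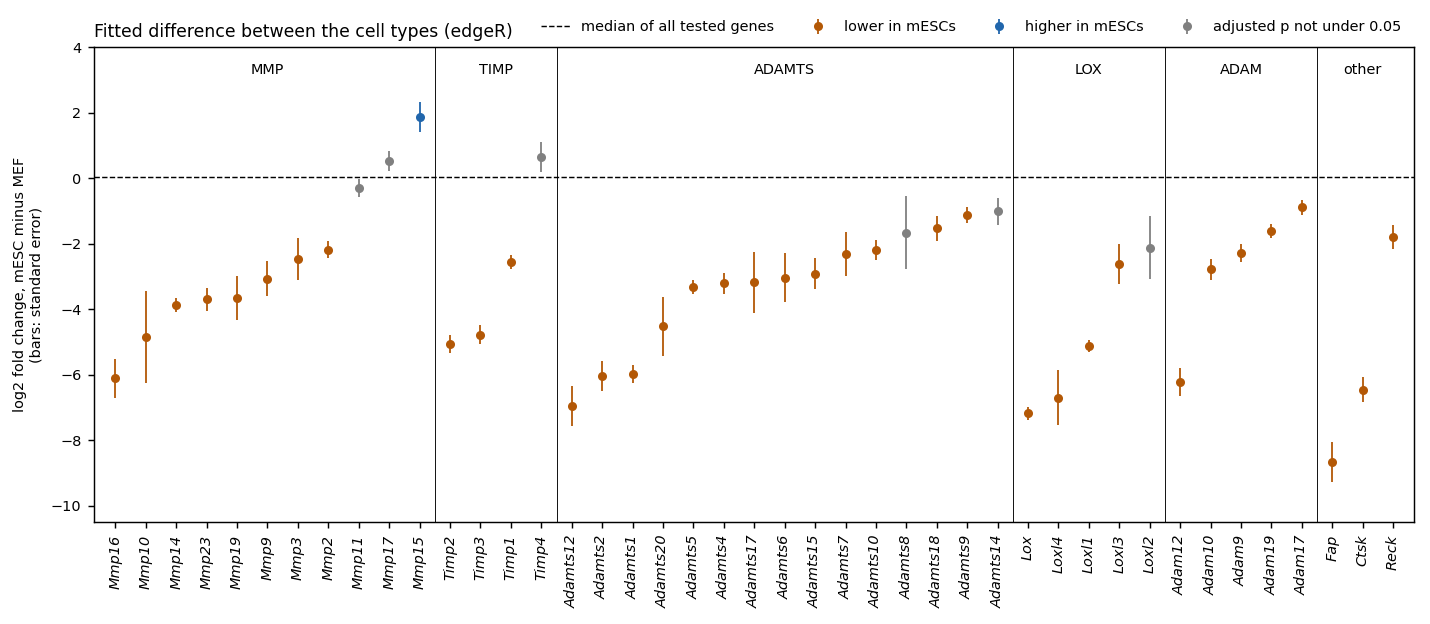
Fitted log2 fold change (mESC minus MEF, vertical axis) of the same 43 genes. Bars are the approximate SE derived from the F statistic, and the dashed line is the median of all tested genes at 0.04. The values run from -8.67 for Fap, which had 1 mESC count in all, to 1.88 for Mmp15, and the 6 grey genes did not pass the test.

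Among the 36 genes that were lower, the mESC level ran from 0.168% to 54.1% of the MEF level, with a median of 10.4%. Of them, 12 lay under 3% (Adam12, Adamts1, Adamts12, Adamts2, Ctsk, Fap, Lox, Loxl1, Loxl4, Mmp10, Mmp16 and Timp2), as did 7 of the 10 fibroblast markers, and 4 of the 12 were under 1%. Another 5 kept over 25% (Adam17, Adam19, Adamts18, Adamts9 and Reck). The 10 fibroblast markers themselves ran from 0.452% to 16.6%, and what part fibroblast RNA had in the mESC counts of these genes was not tested.

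Lysyl oxidases summed in mESCs to 7.35% of their MEF level, a share that was 1.56% without the second mESC library and 10.3% and 10.2% without the first or the third. Lox, the founding enzyme of the family, had 801, 939, 963 and 1050 CPM in MEFs and 8.02, 5.68 and 5.66 CPM in mESCs. The MEF libraries were all far above the mESC libraries, and the mESC mean was 0.687% of the MEF mean. The log2 fold change of Lox was -7.18 (SE 0.212, adjusted p = 7.95e-09). Loxl1, which acts on elastin, had 189, 196, 214 and 219 CPM in MEFs and 5.74, 6.36 and 5.55 in mESCs. The spread of Loxl1 within each cell type was narrow, and the log2 fold change was -5.12 (SE 0.175, adjusted p = 1.64e-08). Loxl3 and Loxl4 were low in MEFs (at most 5.56 and 7.07 CPM) and lower still in mESCs. Loxl3 fell to 16.1% of its MEF level, with a log2 fold change of -2.61 that was -3.21 without the second mESC library. Loxl4 had 1 count over the mESC libraries and 173 over the MEF libraries, a ratio of 145 relative to the TMM-scaled library sizes (95% interval 25.7 to 5760, for counting error only, edgeR adjusted p = 8.12e-05). The fitted log2 fold change of Loxl4 was -6.7 and, with 0 counts left, -8.49 without the second mESC library, and both depend on the count added before taking logs.

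Loxl2, a crosslinker of collagen IV and fibrillar collagens, was the one lysyl oxidase that did not pass the test, and 1 library decided this. It had 717, 333, 374 and 418 CPM in MEFs and 9.21, 292 and 15.5 CPM in mESCs. The second mESC library held 2574 counts against 85 and 131 in the other two, and its level was just below the lowest MEF library. The log2 fold change was -2.12 (SE 0.963, adjusted p = 0.0937), and without that library it was -5.23 (adjusted p = 1.05e-05). In that library 9 of 9166 genes with at least 100 counts over the mESC libraries stood at 10 times or more the level of both others, the same number as in each of the other mESC libraries, and Loxl2 was the only one of the 59 among them. Of the 50-base sequences of Loxl2 transcripts, 42.9% also occur in the gene model Gm21451, which had at most 17 counts in a library, so Loxl2 counts of uniquely mapped reads are uncertain. An antisense gene, Gm27177, covers 5.57% of the Loxl2 exon bases and did not exceed 2.59 CPM.

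TIMPs, the direct inhibitors of MMPs, differed among themselves. Timp1 had 200, 236, 146 and 160 CPM in MEFs and 35.5, 29.8 and 29.7 in mESCs. Its mESC libraries lay close together and below every MEF library, at a log2 fold change of -2.55 (SE 0.206, adjusted p = 3.38e-06). Timp2, which also takes part in the activation of pro-MMP2 by Mmp14, had 195, 229, 159 and 213 CPM in MEFs and 6.18, 3.86 and 7.67 in mESCs. It stood at 2.97% of its MEF level where Timp1 stood at 17.1%, with a log2 fold change of -5.07 (SE 0.271, adjusted p = 1.92e-07). Timp3, which binds to the matrix and also inhibits ADAM17 and ADAMTS proteases, had 72.1, 43, 49.6 and 50.9 CPM in MEFs and 1.52, 2.16 and 2.24 in mESCs. No mESC library of Timp3 came near the MEF range, and the log2 fold change was -4.77 (SE 0.287, adjusted p = 4.25e-07). Timp4 was low in both cell types, with 2.3, 2.74, 1.44 and 2.07 CPM in MEFs and 3.47, 2.16 and 4.37 in mESCs. The ranges of Timp4 overlapped, and its log2 fold change of 0.64 (SE 0.455) did not pass (adjusted p = 0.28). Per kilobase of exon, Timp1 made up 78.2% of the summed TIMP level in MEFs and 93.9% in mESCs, and Timp2 19.2% and 3.97%. The labels describe the libraries as 3-prime biased, which would make counts depend less on length, and coverage along genes was not measured here. On the CPM scale Timp2 was level with Timp1 in MEFs (45.2% and 42%) and Timp1 led in mESCs at 73.9%. Synapsin genes lie on the other strand of 3 TIMP genes. Timp1 sits in an intron of Syn1 and Timp3 shares 21.3% of its exon bases with Syn3, whose own levels were 3.95 to 12.9 CPM in MEFs and 1.59 to 5.66 in mESCs, while Timp4 shares 1.53% with Syn2.

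Reck, a membrane-anchored inhibitor of MMPs, had 11.7, 7.77, 18.1 and 19.1 CPM in MEFs and 4.23, 3.98 and 4.01 CPM in mESCs. It was one of the genes with the smaller differences, at 28.7% of the MEF level and a log2 fold change of -1.79 (SE 0.365, adjusted p = 0.00209).

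Membrane-type MMPs split by gene. Mmp14 (MT1-MMP), which cuts fibrillar collagen at the cell surface and activates pro-MMP2, had 159, 173, 229 and 188 CPM in MEFs and 13.4, 10.6 and 14.3 in mESCs. Its mESC level was 6.81% of that in MEFs, with a log2 fold change of -3.87 (SE 0.206, adjusted p = 1.85e-07). Mmp16 (MT3-MMP) had 25.2 to 35.9 CPM in MEFs and 0.975, 0.227 and 0 in mESCs, where the largest value rested on 9 counts. Its log2 fold change was -6.11 and was -7.82 without the first mESC library. Mmp15 (MT2-MMP) went the other way, with 1.34, 0.762, 0.959 and 1.43 CPM in MEFs and 3.58, 5.57 and 3.42 in mESCs. Every mESC library of Mmp15 was above every MEF library on 5 to 49 counts per library. Its log2 fold change was 1.88 (SE 0.463, adjusted p = 0.00644), and tested against a fold change of 2 the adjusted p was 0.0531. Mmp17 (MT4-MMP), which is tied to the membrane by a GPI anchor, had 5.76, 5.34, 8.15 and 9.06 CPM in MEFs and 9.65, 11.5 and 9.32 in mESCs. Its groups did not overlap, with the mESC libraries above, but the gap to the highest MEF library was small and the log2 fold change of 0.52 (SE 0.302) did not pass (adjusted p = 0.183). Mmp24 and Mmp25 were not tested, with at most 2 and 22 counts in a library.

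The gelatinases cut denatured collagen and basement membrane collagen IV. Mmp2 had 31.4, 24.7, 44.5 and 41.2 CPM in MEFs and 7.8, 6.93 and 8.73 in mESCs. All mESC libraries of Mmp2 were below all MEF libraries, at 22.1% of the mean and a log2 fold change of -2.18 (SE 0.262, adjusted p = 5.99e-05). Mmp9, which is also abundant in neutrophils and macrophages, had 5.47 to 12.7 CPM in MEFs and 0.341 to 1.52 in mESCs and was lower at a log2 fold change of -3.06 (SE 0.547, adjusted p = 0.000922). Of the 4 macrophage markers tested, Lyz2 was lower in mESCs (6.62 to 35.8 CPM in MEFs and 0.975 to 7.08 in mESCs), Cd68 was higher (3.12 to 5.64 and 4.84 to 14.2), and Csf1r and Cd14 did not pass. The neutrophil marker Mpo, the only one of its list tested, had 0.457 to 2.21 CPM in MEFs and 1.7 to 2.38 in mESCs and did not pass. Ptprc, the pan-leukocyte gene, did not exceed 2.04 CPM, the neutrophil genes S100a8 and S100a9 did not exceed 0.318 and 0.959 CPM, and Ly6g had no count in any library. The part of such cells in the Mmp9 level was not tested.

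Mmp11 and Mmp23 are cut to their active form by furin-type enzymes on the way out of the cell. Mmp23 had 37, 37.5, 53.7 and 63.1 CPM in MEFs and 3.79, 1.93 and 5.31 in mESCs. It was lower in every mESC library, with a log2 fold change of -3.7 (SE 0.362, adjusted p = 1.41e-05). Mmp11 (stromelysin 3) had 35.6, 29.7, 66.9 and 64.6 CPM in MEFs and 38.7, 39.7 and 41.4 in mESCs. The mESC values fell between the lower and the higher pair of MEF libraries, and the log2 fold change of -0.3 (SE 0.282) did not pass (adjusted p = 0.418). Chchd10 lies on the other strand, covers 5.58% of the Mmp11 exon bases and rose from 2.66 CPM in MEFs to 200 in mESCs, and its part in the mESC counts of Mmp11 was not tested. Mmp11 made up 58.7% of the summed MMP level per kilobase in mESCs, against 19.1% in MEFs, where Mmp14 led with 33.9%. On the CPM scale Mmp11 was 47% in mESCs and 12.9% in MEFs.

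Genes of the chromosome 9 cluster, which encode the interstitial collagenases, stromelysins, matrilysin, macrophage elastase (Mmp12) and enamelysin (Mmp20), were low in both cell types. The highest value of any of the 10 in any library was 4.8 CPM. Only Mmp3 and Mmp10 were tested, and both were lower in mESCs. Mmp3 (stromelysin 1) had 1.34, 3.51, 1.68 and 2.23 CPM in MEFs and 0.217, 0.454 and 0.472 in mESCs. These are 14 to 23 counts against 2 to 4, with a log2 fold change of -2.47 (SE 0.642, adjusted p = 0.00869). Mmp10 (stromelysin 2) had 4.8, 3.66, 1.8 and 0 CPM in MEFs and 0, 0.227 and 0 in mESCs. One MEF library lacked it, and its 89 MEF and 2 mESC counts gave a ratio of 37.3 relative to the TMM-scaled library sizes (95% interval 10 to 313, for counting error only, edgeR adjusted p = 0.015). The adjusted p of Mmp10 was 0.0612 without the first and 0.0552 without the third mESC library, and its fitted log2 fold change of -4.85 was -7.42 without the second, where 0 mESC counts were left. Of the 50-base sequences of Mmp3 and Mmp10, 8.39% and 8.37% are shared with the other gene or further copies. The 8 genes not tested reached at most 32 counts in a library (Mmp12). Mmp13 (collagenase 3) had 13 counts in 1 MEF and 14 in 1 mESC library and at most 2 elsewhere, Mmp8 2 to 12 counts, and Mmp1a, Mmp20, Mmp27 and Mmp7 at most 2. Mmp1b had no count in any library.

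**Figure D3:**
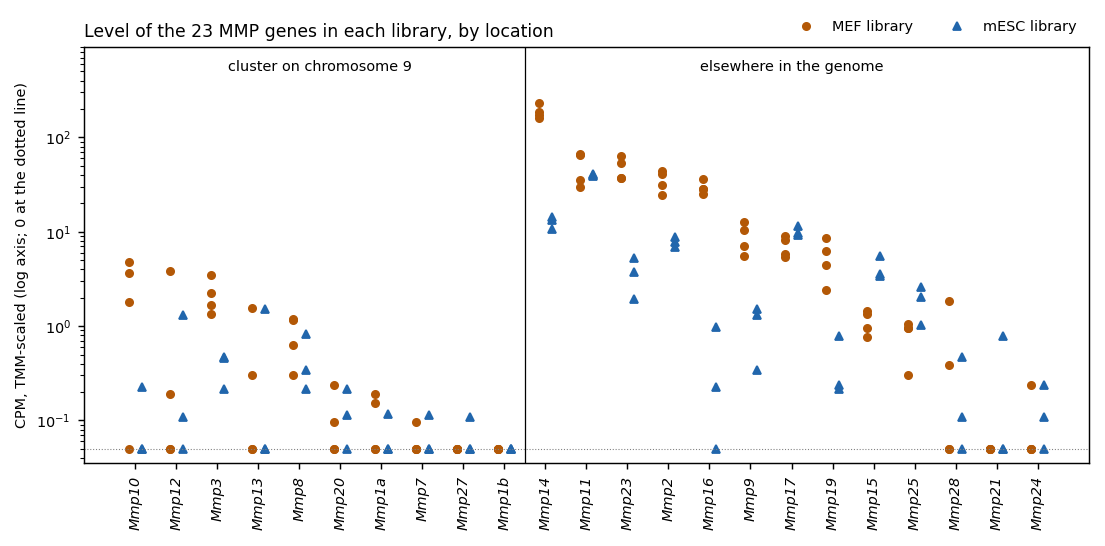
CPM (log axis) of the 23 MMP genes in each library, with the 10 genes of the chromosome 9 cluster on the left and the 13 others on the right; circles are MEF and triangles mESC libraries, and 0 is drawn at the dotted line. No cluster gene exceeds 4.8 CPM, while Mmp14 on the right reaches 229 CPM in a MEF library.

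The remaining MMPs were also low. Mmp19 had 2.44 to 8.63 CPM in MEFs and 0.217 to 0.795 in mESCs, with a log2 fold change of -3.66 (SE 0.674, adjusted p = 0.00111) that was -4.5 without the second mESC library, and it shares 22.3% of its exon bases with Tmem198b on the other strand, which had at most 1.82 CPM. Mmp28 (epilysin) and Mmp21 were not tested, with at most 12 and 7 counts in a library. Mmp21 counts came from 1 mESC library alone. In all, 8 of the 11 tested MMPs were lower in mESCs, 1 higher and 2 not called, with a median log2 fold change of -3.06. Over all tested genes 25% were lower and 22.8% higher, and the other 12 MMPs were not tested. Mmp3, Mmp9, Mmp10, Mmp16 and Mmp19 met the filter in MEFs alone and Mmp15 in mESCs alone. These genes entered through the group in which they were high.

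ADAMTS proteases that cut aggrecan and versican were lower in mESCs in 6 of 7 cases, against 25% of all tested genes. Of the 7, Adamts8 and Adamts20 met the filter in MEFs alone. Adamts5 had 185, 194, 167 and 168 CPM in MEFs and 14.1, 22.8 and 16.5 in mESCs. The MEF values of Adamts5 were close to each other, and the log2 fold change was -3.32 (SE 0.204, adjusted p = 4.76e-07). Its neighbour Adamts1, which lies beside it on chromosome 16, had 103, 120, 115 and 121 CPM in MEFs and 1.52, 1.25 and 2.71 in mESCs. Adamts1 was thus at 1.59% of its MEF level where Adamts5 was at 9.99%, with a log2 fold change of -5.97 (SE 0.274, adjusted p = 7.19e-08). Adamts4 had 27.1, 38.4, 25 and 33.4 CPM in MEFs and 2.06, 3.52 and 4.48 in mESCs (log2 fold change -3.2, SE 0.318, adjusted p = 1.54e-05). Adamts15 had 8.83, 26.2, 31.9 and 38.2 CPM in MEFs and 3.03, 3.29 and 4.13 in mESCs (log2 fold change -2.91, SE 0.469, adjusted p = 0.000472). Adamts9 differed least, with 27.7, 38.6, 21.2 and 27.4 CPM in MEFs and 13.3, 14.1 and 12.5 in mESCs. It kept 46.3% of the MEF level (log2 fold change -1.11, SE 0.24, adjusted p = 0.00312), and 9.18% of its exon bases lie over A730049H05Rik on the other strand, which had 2.71 to 7.79 CPM in mESCs. Adamts20 had 1.15 to 5.75 CPM in MEFs and at most 0.325 in mESCs, with a log2 fold change of -4.52 that was -5.7 without the first mESC library. Adamts8 had 2.01, 4.57, 3.6 and 0 CPM in MEFs and 0.108, 1.93 and 0.354 in mESCs. The groups of Adamts8 overlapped, since 1 MEF library had no count, and its log2 fold change of -1.66 (SE 1.11) did not pass (adjusted p = 0.247) and was -3.4 (adjusted p = 0.0802) without the second mESC library.

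The procollagen N-propeptidases remove the amino-terminal propeptide of fibrillar procollagens. Adamts2 had 19.3 to 40.3 CPM in MEFs and 0.236 to 0.542 in mESCs, 1.46% of the MEF level, with a log2 fold change of -6.03 (SE 0.457, adjusted p = 2.21e-06). Adamts14 had 4.13, 5.34, 3.24 and 6.52 CPM in MEFs and 2.71, 2.5 and 1.89 in mESCs. All mESC libraries of Adamts14 were below all MEF libraries, but the log2 fold change of -1.01 (SE 0.416) did not pass (adjusted p = 0.0684), and without the third MEF library it did (adjusted p = 0.0495). Adamts3 was not tested, with 2 to 18 counts per library.

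Adamts7 and Adamts12, which cut cartilage oligomeric matrix protein, were both lower in mESCs. Adamts12 had 361 counts over the MEF and 2 over the mESC libraries, a ratio of 151 relative to the TMM-scaled library sizes (95% interval 41.6 to 1250, for counting error only, edgeR adjusted p = 6.73e-06). Adamts7 had 4.7 to 10.5 CPM in MEFs and 3.25, 0.341 and 0.826 in mESCs, so 1 mESC library came close to the MEFs. Its log2 fold change was -2.32 (adjusted p = 0.0151), was -3.65 without that library, the first, and lost the call (adjusted p = 0.0559) without the third. Adamts13, which cuts von Willebrand factor, was not tested, with at most 4 counts per library.

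Adamts10, which acts on fibrillin microfibrils, had 20.7, 25, 22.9 and 24.2 CPM in MEFs and 4.44, 7.39 and 3.42 in mESCs. Its MEF libraries were nearly level, and the log2 fold change was -2.18 (SE 0.3, adjusted p = 0.000154). Adamts6, its close relative, had 6.04 to 11.1 CPM in MEFs and 2.6, 0.341 and 0.118 in mESCs, with a log2 fold change of -3.03 (adjusted p = 0.00698) that was -5.12 without the first mESC library. Adamts17 had 1.34, 2.13, 14.5 and 16.7 CPM in MEFs and 0.542, 1.59 and 0.708 in mESCs. The MEF libraries of Adamts17 formed a low and a high pair, and the low pair overlapped the mESCs. Its log2 fold change was -3.17 (SE 0.931, adjusted p = 0.0163), was -3.76 without the second mESC library, and lost the call without the first (adjusted p = 0.0636) or the third (adjusted p = 0.0552). Adamts18 had 5.56 to 9.7 CPM in MEFs and 2.06 to 2.95 in mESCs (log2 fold change -1.53, SE 0.385, adjusted p = 0.00716). Adamts16 and Adamts19 were not tested. Adamts16 had at most 24 counts, in a MEF library, and Adamts19 at most 20, in an mESC library with 2 and 3 in the others. In all, 13 of 15 tested ADAMTS genes were lower and none was higher, with a median of -3.03. Over all tested genes 25% were lower and 22.8% higher. Adamts2, Adamts6, Adamts7, Adamts8, Adamts12, Adamts17 and Adamts20 met the filter in MEFs alone, the group in which they were high.

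All 5 ADAM genes were lower in mESCs, against 25% of all tested genes, and Adam12 met the filter in MEFs alone. This family kept members at substantial levels in both cell types. Adam10, the sheddase that starts the cleavage of Notch receptors, had 645, 692, 792 and 480 CPM in MEFs and 98.8, 137 and 48 in mESCs. Its mESC libraries varied among themselves but lay well below MEFs, at a log2 fold change of -2.78 (SE 0.327, adjusted p = 5.09e-05). Adam17, the sheddase of tumour necrosis factor and of epidermal growth factor receptor ligands, had 84.8, 83.1, 87.2 and 63.9 CPM in MEFs and 37.8, 58.1 and 33.6 in mESCs. Adam17 had the smallest difference of the 36 genes, at 54.1% of the MEF level and a log2 fold change of -0.89 (SE 0.217, adjusted p = 0.00623), and it did not pass against a fold change of 2. Adam19 (meltrin beta) had 91.2, 94.1, 97.2 and 66.2 CPM in MEFs and 21.7, 33.5 and 30.6 in mESCs (log2 fold change -1.61, SE 0.212, adjusted p = 0.000114). Adam9 (meltrin gamma) had 41.6, 43.1, 21.9 and 33.7 CPM in MEFs and 6.18, 8.18 and 7.31 in mESCs (log2 fold change -2.28, SE 0.283, adjusted p = 7.51e-05). Adam12 (meltrin alpha) had 38.6, 29.7, 32.4 and 17 CPM in MEFs and 0.325, 0.341 and 0.472 in mESCs. Of the 5, Adam12 alone was at the floor, with 3 or 4 counts in each mESC library and a log2 fold change of -6.23 (SE 0.427, adjusted p = 1.05e-06). Per kilobase, Adam10 made up 79.3% of the summed ADAM level in MEFs and 62% in mESCs, and Adam17 6.67% and 19.4%. On the CPM scale the shares of Adam10 were 73.8% and 54.4%, and those of Adam17 9.03% and 24.8%.

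Ctsk and Fap are proteases outside these families. Fap, a surface serine protease of activated fibroblasts, had 17.2 to 30.9 CPM in MEFs and 1 count in all over the mESC libraries, against 684 over the MEFs. The ratio relative to the TMM-scaled library sizes was 573 (95% interval 103 to 22700, for counting error only, edgeR adjusted p = 1.37e-06). The fitted log2 fold change of Fap was -8.67 and, with 0 mESC counts left, -10.46 without the first mESC library. Ctsk (cathepsin K), the collagen-cutting cathepsin for which osteoclasts are known, had 22.5 to 35 CPM in MEFs and 0.217 to 0.472 in mESCs, with a log2 fold change of -6.45 (SE 0.391, adjusted p = 4.48e-07). Of the osteoclast markers, Acp5 was higher in mESCs (1.2 to 5.57 CPM in MEFs and 13.1 to 15.2 in mESCs), and Calcr, Dcstamp, Ocstamp and Oscar did not exceed 0.759 CPM in any library and were not tested. The part of such cells in the Ctsk level was not tested.

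Summed over its genes, every family lay lower in mESCs in every library. The LOX family summed to 1720, 1480, 1560 and 1700 CPM in MEFs and to 23.4, 306 and 27 in mESCs. The LOX mean was 1610 ± 114 (SD, n = 4) in MEFs and 119 ± 162 (n = 3) in mESCs, and 25.2 without the library with the high Loxl2. The ADAM family had 884 ± 158 CPM in MEFs and 174 ± 59.2 in mESCs, and the ADAMTS family 488 ± 41 and 56.1 ± 6.45. TIMPs summed to 440 ± 66.3 CPM in MEFs and 42.9 ± 4.49 in mESCs, and MMPs to 381 ± 73.8 and 85 ± 4.76. The mESC sum was 22.3% of the MEF sum for MMPs, 19.7% for the ADAM family, 11.5% for the ADAMTS family, 9.74% for TIMPs and 7.35% for the LOX family. Without the third mESC library the ADAM share (22.7%) was above the MMP share (21.7%), and without the first or the third the LOX share was above the TIMP share (9.3% and 9.61%). The order of MMPs and the ADAM family, and that of TIMPs and the LOX family, is therefore not settled. These sums are descriptions without a test.

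**Figure D4:**
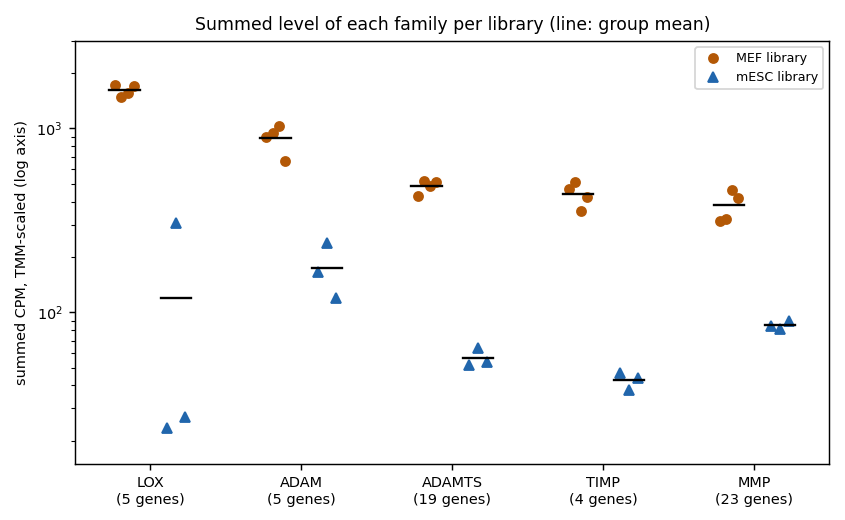
Summed CPM (log axis) of each family in each library; circles are the 4 MEF and triangles the 3 mESC libraries, and the bars are group means. No triangle reaches a circle of its family, and the LOX triangles are split, with 306 CPM in 1 library and 23.4 and 27 in the others.

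Genes that work with these enzymes were read from the same fit in 5 lists, and the background shares of 25% lower and 22.8% higher apply to them too. A value in parentheses after a gene or its ranges is its log2 fold change. Of the matrix proteins that serve as substrates, 12 of 14 were lower in mESCs and 2 higher, with a median log2 fold change of -5.83. The collagen genes Col1a2 (-7.79) and Col3a1 (-7.73) fell most among those lower, and the proteoglycan cores Bcan (0.36 to 1.22 CPM in MEFs and 3.14 to 6.25 in mESCs, 2.62) and Acan (at most 0.61 and 1.53 to 2.17, 2.47), which ADAMTS proteases cut, were higher. The procollagen processing and fibre assembly list had 11 of 14 tested genes lower, 0 higher and 3 not called, with a median of -3.5. Fbln5, which brings Loxl1 to elastic fibres, fell from 403 to 494 CPM in MEFs to 0.759 to 3.3 in mESCs (-7.79), and Fmod, a collagen-binding proteoglycan, fell at -7.38. The lysyl hydroxylases Plod2 (-2.4) and Plod3 (-2.41) fell least of those called. No gene of that list rose with an adjusted p under 0.05 in edgeR or DESeq2, and 1 did without scaling.

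Activators of these proteases and partners of the sheddases were mixed, with 8 of 15 tested genes lower, 3 higher and 4 not called, and a median of -0.68. Plat (tissue plasminogen activator) fell from 55.8 to 62 CPM in MEFs to 0.59 to 2.39 in mESCs (-5.16), and the proprotein convertase Pcsk5 fell at -4.42. Pcsk6, another convertase (3.12 to 7.63 CPM in MEFs and 10.2 to 14.3 in mESCs, 1.44), and Rhbdf2, the iRhom2 partner of Adam17 (4.13 to 5.99 and 10.9 to 13.7, 1.23), rose. ADAMTS-like glycoproteins, which lack the protease domain, were lower in 4 of 5 tested cases with 1 not called and a median of -1.95, from Adamtsl1 (-5.26) and Thsd4 (-4.25) to Adamtsl5 (-1.95) and Adamtsl3 (-1.91). Other matrix proteases and inhibitors had 7 of 13 lower, 2 higher and 4 not called, with a median of -1.45. The serine proteases Prss23 (-6.62) and Htra3 (-5.01) fell most, and the surface peptidases Dpp4 (0.318 to 2.29 CPM in MEFs and 15.6 to 20.3 in mESCs, 3.43) and Mme (4.42 to 15.6 and 35.8 to 38.6, 1.9) rose. Dpp4 is the closest relative of Fap among peptidases, and the pair went in opposite directions.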

How the data were processed

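RNA-seq gene counts of 4 MEF and 3 mESC samples were used. The authors demultiplexed and trimmed the reads with Sabre and Cutadapt and mapped them to mm10 with STAR (version 2.4.2a in the submitters' processing notes, another version in the paper's methods). Reads with the same molecular identifier were collapsed by Je, and uniquely mapped reads were assigned to exons by featureCounts. The deposited values are whole-number counts without normalization. The strand setting and annotation release are not given in the sources used here, so genes with exons on the other strand are uncertain. Column names carry a letter, O in MEFs and Y in mESCs, that is not explained. The extraction text, which speaks of young and aged cells, does not tie the letters to either word, and they cannot be told apart from the cell type.

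The 2 cell types were compared by edgeR's quasi-likelihood test (edgeR 4.0.16 with limma 3.58.1 in R 4.3.3), with filterByExpr and TMM and no covariate. Ratios on 1 to 3 counts have exact 95% intervals. In simulated counts of 16580 genes, of which 200 were changed, edgeR found 198 (4 false calls) and DESeq2 1.42.0 found 194 (9 false calls). The simulation gave all genes the same spread, and the changed genes the same size of change, equally often up and down. Far more genes were called in the data, so these numbers check the code and do not measure error rates here. No pair of libraries of a cell type was alike within sampling noise (chi-square 15.6 to 31.1 per degree of freedom). Coordinates and exon overlaps are from GENCODE M21 on GRCm38. Members and lists were chosen with earlier results of these data known. Values in every library are given for the 20 lower members with the highest mean log2CPM, every higher member and every tested member not called. Some further members are given in every library too, and these were chosen after their values were seen. From each partner list, the 2 called genes with the highest and the 2 with the lowest log2 fold change are named. Alternatives were DESeq2, its size factors in edgeR, no scaling, other filters, a test against a fold change of 2 and leaving out each library.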

Additional observations from a re-analysis of the deposited data

Results flagged for a closer look

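Among the groups of 4 MEF libraries, 51 members had values to examine for a library far from the others, and 2 were marked, where chance gives 2.55. Mmp12, the macrophage elastase, had 3.83 CPM (32 counts) in the third MEF library and 0 to 0.192 CPM in the other MEF libraries. The 8 macrophage markers summed to 59.7 CPM in that library and to 37.3, 23.5 and 57.6 in the other MEF libraries. Of the 8, 3 were highest of the MEF libraries there (Fcgr1, Itgam and Ptprc, with 0.719, 1.8 and 2.04 CPM) and 2 were lowest there (Adgre1 and Cd68, with 0 and 3.12), and their part in the Mmp12 value was not tested. Mmp25 had 0.305 CPM (2 counts) in the second MEF library, where the others had 0.954 to 1.06 CPM.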

How the results depend on the processing

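The number of members lower in mESCs was 36 of 43 tested as reported and 32 of 43 against a fold change of 2. It was 37 of the 51 with an adjusted p in DESeq2 and 38 of 58 with no filter beyond 1 count. Where all libraries of at least 1 cell type had to hold 10 counts, it was 35 of 41. Over all genes, 4153 of 16580 were lower as reported and 4635 of 37943 with no filter beyond 1 count. Without that filter both shares were smaller. Leaving out each library in turn gave 33 to 37 lower members and 1 higher, with 40 to 46 members tested. Against a fold change of 2, 2277 of all genes were lower and 1714 higher, and 0 members were higher, since Mmp15 had an adjusted p of 0.0531. Adam17, Adamts18, Adamts7 and Adamts9 also lost their call there (adjusted p 0.867, 0.106, 0.0634 and 0.382). Without scaling the median of all genes moved from 0.04 to 0.32, the procollagen list had 1 higher gene, and the family means became 95.1 (MMP), 48 (TIMP) and 62.7 CPM (ADAMTS) in mESCs and 1490 CPM (LOX) in MEFs. Over 548 log2 fold changes of members under alternatives, 535 stayed on their side of the threshold with the same sign, 10 lost the call, 3 gained it and 0 changed sign. Settings in which a member was no longer tested are not among them. For this reason Mmp10 had 9 values, Mmp3 and Adamts20 had 10 and Adamts8 had 12, where the other members had 13. With no filter Loxl2 gained the call (adjusted p = 8.07e-31), where the fit shrank every gene fully to a common spread. Leaving out 1 library moved the fold of 12 members by over 1.5 times, each away from 0. No paired analysis was possible because the count columns do not carry the sample numbers. Depth limits the genes near the floor, since 3 counts stood for as much as 0.477 CPM.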

Other observations

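Several members separated the third and the fourth MEF library from the first and the second. Both lay above both others in 15 of the 43 tested members (34.9%), against 22.6% of all tested genes, and below both in 6 (14%), against 21.7%. Adamts17 had 14.5 and 16.7 CPM in that pair and 1.34 and 2.13 in the others, and Mmp11 had 66.9 and 64.6 against 35.6 and 29.7. Of the 10 fibroblast markers, 7 were higher in both libraries of that pair (such as Dcn with 467 and 522 CPM against 121 and 149), 2 were lower in both (Thy1 with 325 and 344 against 354 and 386, and S100a4 with 156 and 153 against 236 and 209), and Col1a1 was mixed. The summed level of the Y-linked genes Ddx3y, Eif2s3y and Kdm5d was 90.6 and 88.4 CPM in that pair and 2.11 and 0.61 in the other MEF libraries. Among mESCs it was 1.73, 1.82 and 35.9 CPM. The part of this difference between MEF libraries in the member levels was not tested.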
